A study of Mus musculus with 16 samples.

Results

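The mouse gene Id2 and the acetylated chromatin upstream of it were followed from early progenitors to mature dendritic cells. The window was chromosome 12 from 25770000 to 26000000 of the mm9 build. Id2 lies near its low end, at about 25779000 to 25782000, and the rest is a distal block reaching about 220 kb from the gene. The members were all regions that overlap the window in 4 deposited lists of regions compared for H3K27ac between cell types, 114 of 273958 regions. A place in a list does not by itself show a difference. The −log10 p in the authors' deposited table went down to 0.44 among the members. No filter on low values was applied, so each of the 114 enters the counts. The window was chosen on the listed H3K27ac signals themselves, so all of its values are a description and carry no test. Whether the distal regions act on Id2 was not tested.

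H3K27ac is an acetylation of histone H3 that marks promoters and enhancers in use, measured here by chromatin immunoprecipitation and sequencing. The cells were from C57BL/6 mice, with no further genotype or treatment in the labels and 2 libraries per cell type: multipotent progenitors (MPP), common dendritic cell progenitors (CDP), and their descendants, classical (cDC) and plasmacytoid (pDC) dendritic cells. The lists compare CDP with MPP (21 of 60816 regions in the window), cDC with CDP (24 of 76865), pDC with CDP (32 of 69958) and cDC with pDC (37 of 66319). The labels do not tie libraries to animals or cultures, and their fields name different suppliers of the antibody, Abcam and Santa Cruz. With 2 libraries on each side, the smallest p an exact permutation test (two-sided) allows is 0.333. The cell types were not checked on marker genes, since an mm9 annotation was not used here.

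Id2 encodes an inhibitor of DNA binding. Its protein has a helix-loop-helix domain without the basic stretch that contacts DNA, so that it pairs with E proteins, among them the product of Tcf4, and keeps them off their sites. Id2 is known for its part in the development of classical dendritic cells, while plasmacytoid dendritic cells depend on the E protein made from Tcf4.

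The sequence before the start of Id2 is shown for its letters only, and which listed region holds it was not determined. RefSeq places it on the minus strand of GRCm38.p6, chr12:25096093-25096342, a build other than that of the lists. The 250 bases run 5′ to 3′ toward the gene. Capitals mark CANNTG, the E box to which E proteins bind, and GGAA or its reverse complement TTCC, the core bound by ETS factors such as PU.1.
Id2 promoter: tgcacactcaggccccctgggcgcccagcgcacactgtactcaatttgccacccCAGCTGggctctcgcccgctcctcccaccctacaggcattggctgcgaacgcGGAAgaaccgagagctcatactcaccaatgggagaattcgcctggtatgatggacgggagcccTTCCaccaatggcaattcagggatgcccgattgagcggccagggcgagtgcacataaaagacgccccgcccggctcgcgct
The promoter held 1 CANNTG match, CAGCTG, 196 to 191 bases before the start, which reads the same on both strands. It held 2 GGAA matches, 1 on each strand. Among 32851 RefSeq promoters of this length, 66.2% held CANNTG and 93.4% held GGAA on either strand, so both are common. TGANTCA and TATAAA had 0 matches on either strand, and 6.75% and 12.4% of the promoters held them. No match overlapped another, and a match says only that these letters are present. Because Id2 lies on the minus strand, the distal block is upstream of it. In the RefSeq order of genes, 11 long noncoding RNA genes and 2 pseudogenes lie on that side before the next protein-coding gene, Rnf144a, and Kidins220 is the neighbour on the other side. Which of these fall in the window was not determined, as the builds differ.

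The signals are the authors' deposited values, whole numbers scaled for each library within a list. They are given for the first-listed and then the second-listed library. The second-listed cDC library had a median log2 offset of 0.50 over the first in both of its lists, the largest among the 4 cell types. Levels are compared within a list only, and a fold is the quotient of group means plus 1.

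At the gene itself, acetylation was higher in CDP than in MPP, higher again in cDC than in CDP, and lower in pDC than in cDC. The regions that overlap Id2 or the 2 kb on either side were summed. CDP libraries gave 3526 and 4881 and MPP libraries 909 and 497 over 6.5 kb, 5.97-fold higher in CDP with no overlap. In the next list a single region of 9.4 kb, from 25777251 to 25786650, covered the whole gene. There cDC libraries gave 24792 and 26516 and CDP libraries 4683 and 6367, 4.64-fold higher in cDC and again without overlap. By the p-value in the authors' deposited table it stood at place 4 of the 32994 regions listed as higher in cDC, with a −log10 p of 3034, and at place 10 by length. In the list of the mature cells, cDC libraries gave 24972 and 26281 and pDC libraries 5427 and 6409 over 9.3 kb, 4.33-fold higher in cDC. That is a level of 2756 per kb in cDC and 636 per kb in pDC, with no overlap.

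**Figure D1:**
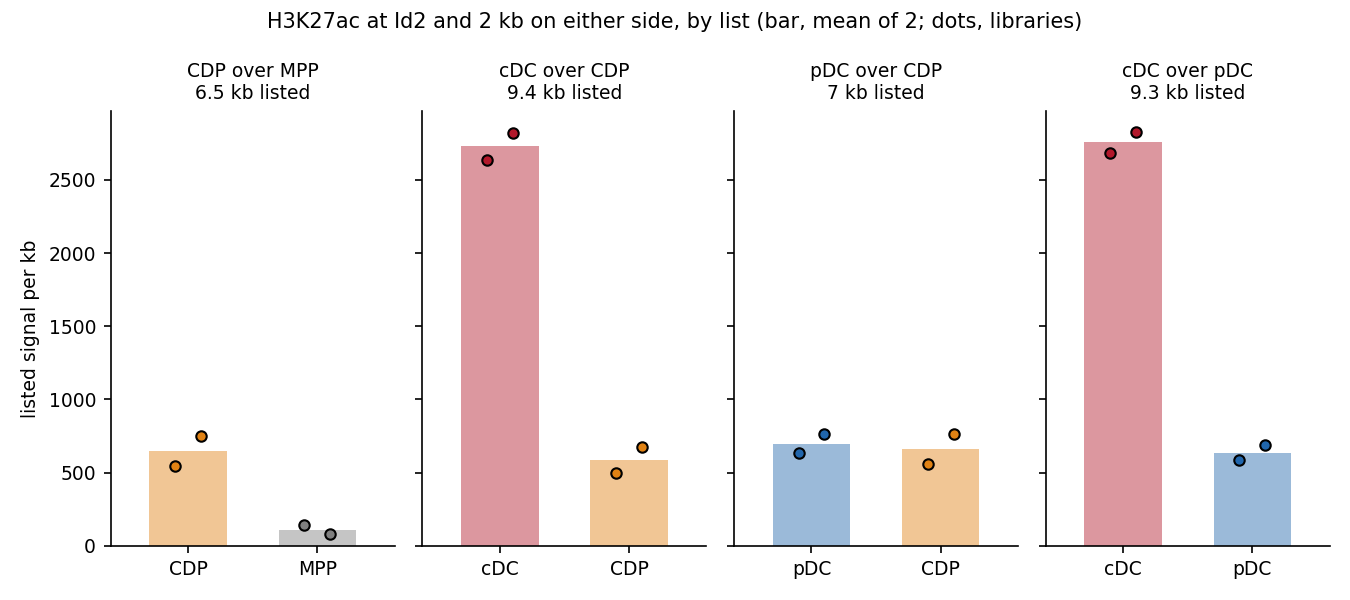
Listed H3K27ac signal per kb over the regions at Id2 and 2 kb on either side, in each of the 4 lists (vertical axis, signal per kb; bars, mean of 2 libraries; dots, libraries). The cDC means are 2729 and 2756 per kb in their lists, whereas pDC and CDP overlap in theirs; levels are comparable within a panel only.

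Between pDC and CDP the gene was divided: pDC had more acetylation in the piece at low coordinates and less in those toward the distal block. The Id2 bounds are approximate and no mm9 annotation was used, so which piece holds the start of the gene was not determined. From 25779151 to 25781550, pDC libraries gave 3224 and 3393 and CDP libraries 1082 and 1698, 2.38-fold higher in pDC. From 25781601 to 25782500, pDC libraries gave 68 and 152 and CDP libraries 341 and 489, 3.75-fold lower in pDC. That log2 ratio of -1.91 was -2.59 without the second-listed pDC library. From 25782601 to 25786300, upstream, pDC libraries gave 1133 and 1779 and CDP libraries 2485 and 3157, 1.94-fold lower in pDC. The libraries did not overlap in any of these 3 regions. Because the pieces offset each other, the sums of 4425 and 5324 in pDC and 3908 and 5344 in CDP overlapped, with a log2 ratio of 0.08. This sum turned to -0.22, with pDC below CDP in every library, when library totals over the autosomal regions of the list were made equal. It also turned to -0.13 without the first-listed CDP library and to -0.06 without the second-listed pDC library, while the 3 pieces kept their direction under equal totals, at log2 ratios of 0.97, -2.22 and -1.26.

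In the lists of cDC with pDC and of CDP with MPP, the upstream side of the gene carried the larger contrast, while the list of cDC with CDP holds a single region there. From 25781251 to 25786600, on the upstream side, cDC libraries gave 15873 and 16860 and pDC libraries 1935 and 2785, 6.93-fold higher in cDC. From 25777251 to 25780950, on the other side, cDC libraries gave 8900 and 9065 and pDC libraries 3187 and 3296, 2.77-fold higher in cDC. A region of 0.25 kb between them gave 199 and 356 in cDC and 305 and 328 in pDC, which overlap. Thus the upstream side had a level of 3059 per kb in cDC and 441 per kb in pDC. Between the progenitors, CDP libraries gave 2242 and 2875 and MPP libraries 446 and 216 from 25782801 to 25786300, 7.71-fold higher in CDP, at a log2 ratio of 2.95 that was 3.56 without the first-listed MPP library. From 25779401 to 25782400, CDP libraries gave 1284 and 2006 and MPP libraries 463 and 281, 4.41-fold higher in CDP.

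The distal block did not move as a unit. Regions of any list less than 1 kb apart were joined, after the values were seen, into 21 elements: that of the gene and 20 that start 44.4 to 212.95 kb from it. Of the 21, 15 were higher in cDC than in CDP without overlap of summed signals, 1 was lower, 3 overlapped and 2 were not in that list. Elements were joined in the window only, so no share over a whole list stands beside the counts of elements here or below. Shares of single regions are given further on. Against CDP, pDC was higher at 11 and lower at 3, with 2 overlapping and 5 not listed. Between the mature cells, cDC was higher at 13 and lower at 5, with 1 overlapping and 2 not listed. Between the progenitors, CDP was higher at 4 and lower at 2, with 6 overlapping and 9 not listed. Under equal totals, CDP was higher than MPP at 7, cDC lower than CDP at 2, and pDC higher than CDP at 9 and lower at 5. In all, 11 of the 66 calls of separate or overlapping libraries changed. Leaving out a library can only keep or raise such counts, so it could show calls gained but none lost. CDP was then higher than MPP at 8 without the first-listed CDP and at 7 without the first-listed MPP library. CDP was lower than MPP at 5 without the second-listed CDP and at 4 without the second-listed MPP library. Lower than CDP were 3 in cDC and 5 in pDC without the first-listed CDP library, and 2 in cDC without the second-listed cDC library. An element was called in a list on its listed pieces alone, which may cover a small part of it. An element without a region in a list was not called there, which does not show equal signal. The lists share libraries, so their values stand side by side and are not independent.

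**Figure D2:**
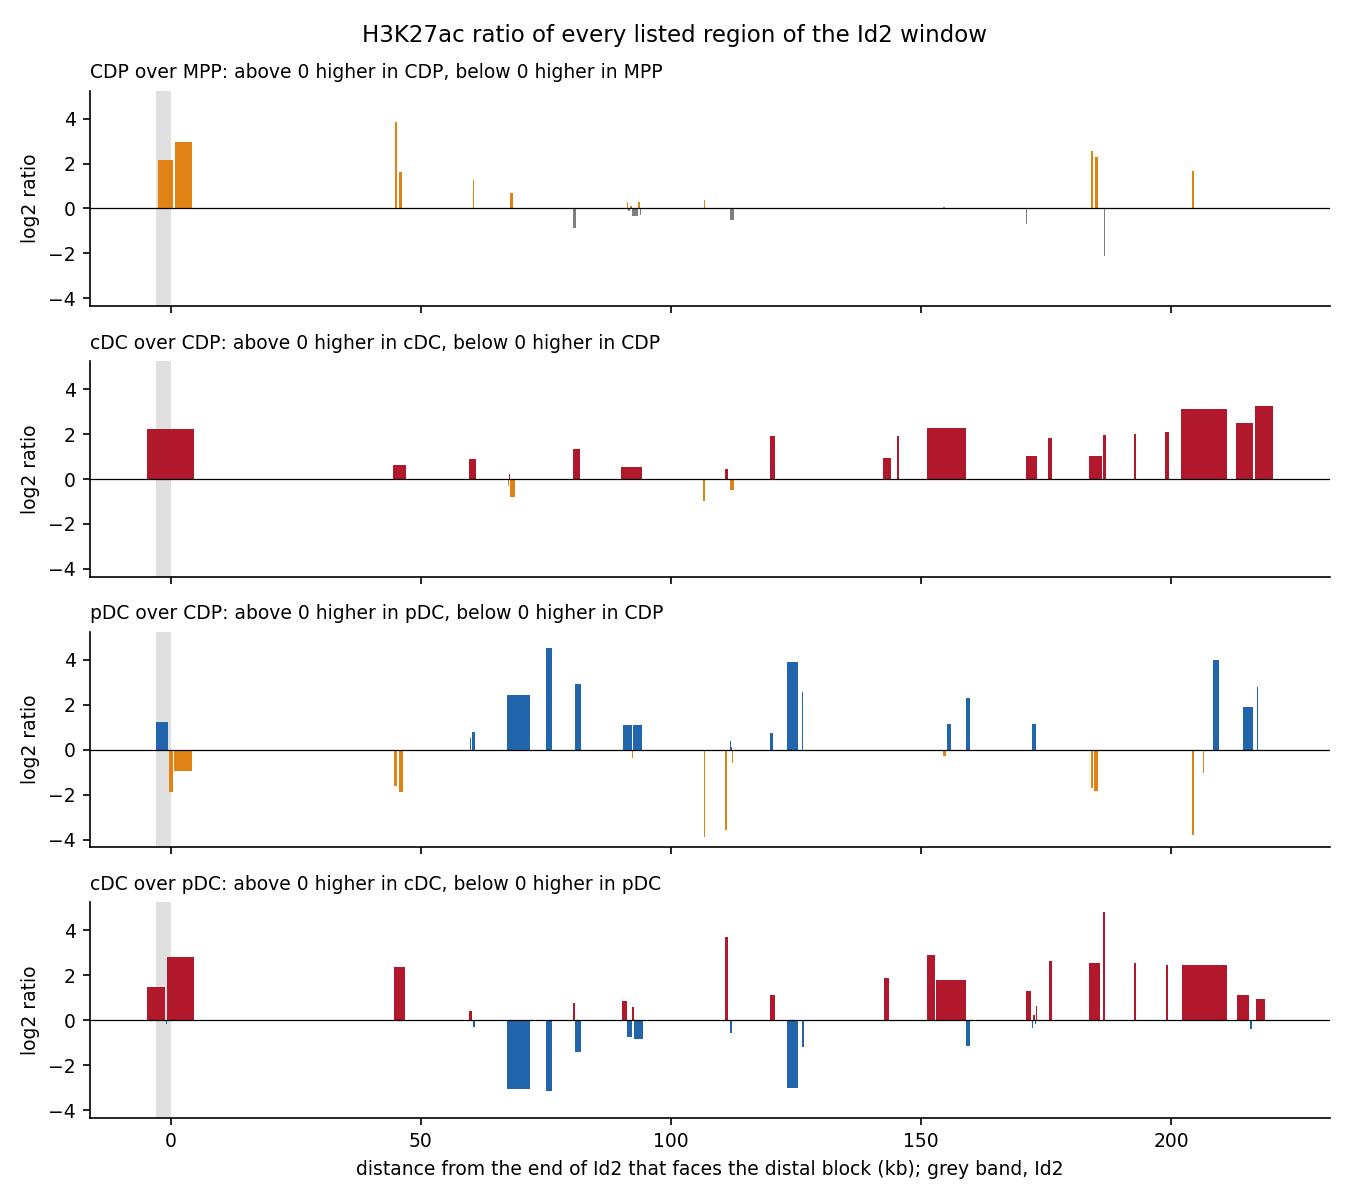
Log2 ratio of H3K27ac for each of the 114 regions, drawn at its width against the distance from the end of Id2 that faces the distal block (horizontal axis, kb; vertical axis, log2 ratio; grey band, Id2; 1 panel for each list). For cDC over CDP the widest distal bars lie beyond 150 kb, and for pDC over CDP the tallest are at 75, 123.2 and 208.4 kb.

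In the far part of the block, 150 to 220 kb from Id2, acetylation was higher in cDC than in CDP at all 10 listed regions, without overlap of libraries. Over the whole list, 42.9% of regions were listed as higher in cDC, and 22.0% were so without overlap. The window was chosen on these signals, so nothing is read from that difference. Together the 10 regions gave 21755 and 25004 in cDC and 4362 and 4647 in CDP over 31.8 kb, 5.19-fold higher in cDC. The longest, from 25984001 to 25993200, measured 9.2 kb and lay 202 kb from the gene. It gave 8848 and 9383 in cDC and 1017 and 1075 in CDP, 8.71-fold higher in cDC. In the authors' deposited table it stood at place 10 by p-value and place 13 by length among regions higher in cDC. Its counterpart in the list of the mature cells, from 25984101 to 25993100, gave 8607 and 9238 in cDC and 1608 and 1665 in pDC, 5.45-fold higher in cDC.

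Other long regions flanked it. From 25933251 to 25941100, 151.25 kb from Id2, cDC libraries gave 5650 and 7224 and CDP libraries 1038 and 1591, 4.89-fold higher in cDC. That element, as 3 regions of the list of the mature cells, gave 5595 and 7235 in cDC and 1914 and 2044 in pDC, 3.24-fold higher in cDC. Its far end went the other way, with 136 and 139 in cDC and 312 and 299 in pDC over 0.8 kb, 2.21-fold lower in cDC. From 25998851 to 26002450, across the edge of the window, cDC libraries gave 1776 and 2030 and CDP libraries 188 and 213. This 9.45-fold ratio was the largest of cDC over CDP in the window.

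Small elements at 175.3, 192.55 and 198.8 kb were higher in cDC than in both CDP and pDC and were not listed between pDC and CDP. They were 3.58-fold, 4.05-fold and 4.24-fold higher in cDC than in CDP. Against pDC they were 6.18-fold, 5.91-fold and 5.58-fold higher in cDC, and the log2 ratio at 192.55 kb, 2.56, ran to 1.97 without the first-listed and 3.60 without the second-listed pDC library. At 198.8 kb the log2 ratio of cDC over pDC, 2.48, was 3.23 without the second-listed pDC library.

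Compared with CDP, pDC was higher at some places of the far part and lower at others. From 25990401 to 25991650, inside the 9.2 kb stretch, pDC libraries gave 832 and 937 and CDP libraries 73 and 35, 16.1-fold higher in pDC, at a log2 ratio of 4.01 that was 4.62 without the first-listed CDP library. From 25986151 to 25986500, in the same stretch, pDC libraries gave 0 and 14 and CDP libraries 90 and 134, 14.1-fold lower in pDC. That log2 ratio of -3.82 was -2.91 without the first-listed and -6.82 without the second-listed pDC library. A stretch that was higher in cDC as a whole thus held pieces on either side of CDP in pDC. Farther out, from 25996401 to 25998400, pDC libraries gave 753 and 1082 and CDP libraries 198 and 298, 3.69-fold higher in pDC.

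Nearer to the gene lay 3 elements with high acetylation in pDC and little in cDC, at 67.25, 75 and 123.2 kb. From 25849251 to 25853800, pDC libraries gave 2547 and 3492 and CDP libraries 473 and 640, 5.42-fold higher in pDC. Over the same 4.55 kb, cDC libraries gave 360 and 500 and pDC libraries 3041 and 4200 in their list, 8.40-fold lower in cDC. Between cDC and CDP this element was listed over 1.4 kb only, with 264 and 388 in cDC and 371 and 605 in CDP, which overlap.

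The element at 75 kb, from 25857001 to 25858350, gave 608 and 1025 in pDC and 6 and 62 in CDP. Its 23.4-fold ratio was the largest of pDC over CDP in the window and rests on low CDP signals: the log2 ratio of 4.55 was 3.70 without the first-listed and 6.87 without the second-listed CDP library. In the list of the mature cells it gave 80 and 133 in cDC and 717 and 1177 in pDC, 8.82-fold lower in cDC. The element at 123.2 kb, from 25905201 to 25908650, gave 1340 and 1587 in pDC and 42 and 161 in CDP, 14.3-fold higher in pDC. Its log2 ratio of 3.84 was 3.18 without the first-listed and 5.09 without the second-listed CDP library. Between the mature cells it gave 198 and 320 in cDC and 1673 and 1926 in pDC, 6.92-fold lower in cDC. Neither element was in the lists of CDP with MPP or cDC with CDP.

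At 8 of the 21 elements, both cDC and pDC were higher than CDP without overlap, and at 6 under equal totals, where pDC and CDP overlapped at 59.6 and 119.75 kb. Some of these calls rest on small parts in the pDC list. It covered 2.2 of 8.55 kb at 151.25 kb and 0.8 of 2.35 kb at 170.9 kb. It covered 1.8 of 9.2 kb at 202 kb and 2.25 of 7.5 kb at 212.95 kb. At 90, 151.25 and 202 kb that list also held pieces listed as lower in pDC. Among the 8, an example with more in pDC is the element at 80.4 kb, where pDC libraries gave 835 and 954 and CDP libraries 51 and 181, 7.65-fold higher in pDC. There cDC libraries gave 538 and 571 and CDP libraries 125 and 312, 2.53-fold higher in cDC. Without the second-listed CDP library the log2 ratios were 4.11 instead of 2.94 for pDC and 2.14 instead of 1.34 for cDC, and without the first-listed it was 2.30 for pDC. Between the mature cells the element was split: cDC was 1.72-fold higher over its near 0.4 kb and 2.70-fold lower over its far 1.15 kb. The element was also among the 2 that were lower in CDP than in MPP, with 60 and 180 in CDP and 237 and 202 in MPP. This was listed over 0.55 kb at its near end only, from 25862401 to 25862950. The region given above for pDC and CDP ran from 25862751 to 25864000, so the 2 differences lay mostly on different sequence. The log2 ratio of CDP over MPP, -0.87, was -1.85 without the second-listed CDP library.

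The element at 90 kb, from 25872001 to 25876350, had the highest level per kb of the distal block in each list and was already acetylated in MPP. It gave 2693 and 3301 in CDP and 3509 and 3299 in MPP, which overlap, at levels of 1033 per kb in CDP and 1174 per kb in MPP. In that list the gene had only 108 per kb in MPP. Against CDP, the element gave 4458 and 6660 in cDC and 3597 and 4125 in CDP, 1.44-fold higher in cDC. It gave 6571 and 6700 in pDC and 3123 and 3631 in CDP, 1.96-fold higher in pDC. Between the mature cells it gave 4351 and 6473 in cDC and 7813 and 7735 in pDC, a log2 ratio of -0.52 that became -0.07, with overlap, under equal totals. Within the element cDC was 1.70-fold and 1.77-fold lower than pDC in 2 regions and higher, at log2 ratios of 0.85 and 0.58, in the other 2.

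**Figure D3:**
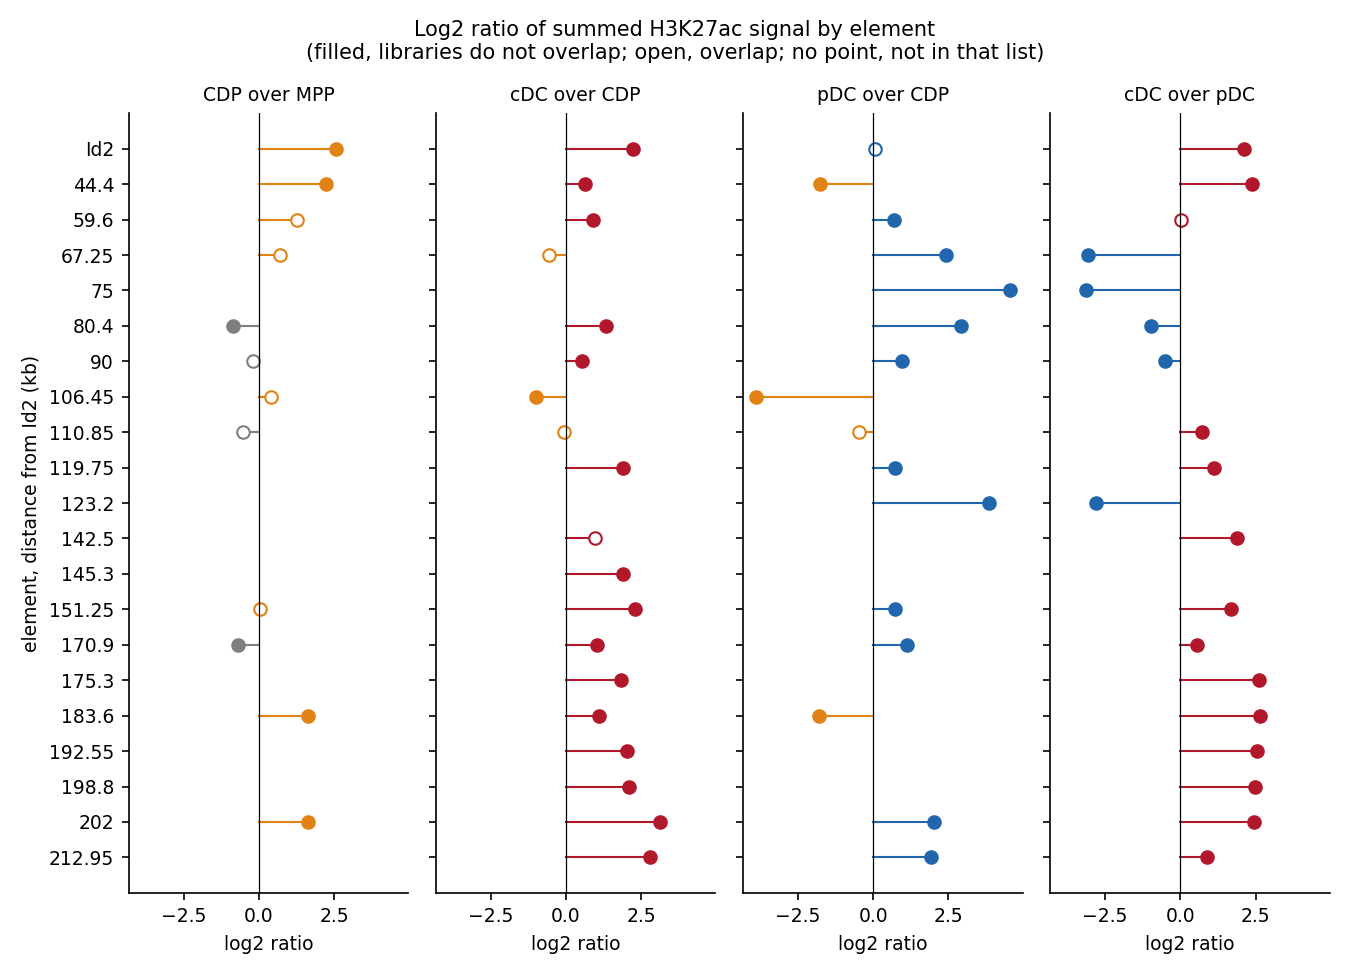
Log2 ratio of summed H3K27ac signal for each of the 21 elements (rows, by distance from Id2 in kb) in the 4 lists (columns; horizontal axis, log2 ratio). Filled points have libraries that do not overlap, open points overlap, and a missing point means no region in that list; the elements at 44.4 and 183.6 kb lie right of 0 for cDC over CDP and left of 0 for pDC over CDP.

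At 2 elements, cDC was above and pDC below CDP without overlap, and CDP was above MPP. Under equal totals the summed signal at Id2 joined them, which made 3. Its log2 ratio of pDC over CDP was then only -0.22, and its piece at low coordinates stayed higher in pDC, at 0.97. The element at 44.4 kb, from 25826401 to 25829000, gave 232 and 355 in CDP and 99 and 24 in MPP, 4.71-fold higher in CDP. It gave 1078 and 1355 in cDC and 617 and 961 in CDP, 1.54-fold higher in cDC. It gave 80 and 184 in pDC and 336 and 559 in CDP, 3.37-fold lower in pDC. Directly compared, it gave 995 and 1202 in cDC and 130 and 288 in pDC, 5.24-fold higher in cDC. The log2 ratio of CDP over MPP there, 2.24, was 3.56 without the first-listed and 1.56 without the second-listed MPP library. That of pDC over CDP, -1.75, was -2.47 without the second-listed pDC library, and that of cDC over pDC, 2.39, was then 3.07.

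The element at 183.6 kb, from 25965601 to 25969000, had the same order. It gave 490 and 369 in CDP and 119 and 158 in MPP, 3.09-fold higher in CDP, although a 0.2 kb piece of it gave 24 and 2 in CDP and 51 and 69 in MPP, a log2 ratio of -2.12 that was -4.35 without the first-listed and -1.29 without the second-listed CDP library. It gave 1527 and 2052 in cDC and 944 and 721 in CDP, 2.15-fold higher in cDC. It gave 74 and 210 in pDC and 557 and 447 in CDP, 3.52-fold lower in pDC. Directly compared, it gave 1309 and 1805 in cDC and 136 and 357 in pDC, 6.29-fold higher in cDC. Without the second-listed pDC library the log2 ratio of pDC over CDP was -2.75 instead of -1.81 and that of cDC over pDC 3.51 instead of 2.65. The length listed differed between lists, from 0.95 to 2.6 kb at 44.4 kb and from 1.25 to 3.15 kb at 183.6 kb.

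A small element at 106.45 kb was lower than CDP in both mature cell types. It gave 55 and 69 in cDC and 86 and 161 in CDP, 1.98-fold lower in cDC, and 9 and 0 in pDC and 59 and 104 in CDP, 15.0-fold lower in pDC. The pDC log2 ratio of -3.91 was -6.37 without the first-listed and -3.04 without the second-listed pDC library. At 110.9 kb, a piece of 0.25 kb gave 1 and 11 in pDC and 71 and 95 in CDP, at a log2 ratio of -3.58 that was -2.81 without the first-listed and -5.39 without the second-listed pDC library. Over 0.5 kb at the same place cDC libraries gave 175 and 245 and pDC libraries 2 and 28, 13.2-fold higher in cDC. That log2 ratio of 3.72 was 2.86 without the first-listed and 6.14 without the second-listed pDC library.

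The remaining elements, at 59.6, 119.75, 142.5, 145.3 and 170.9 kb, had log2 ratios of cDC over CDP from 0.90 to 1.91. The libraries overlapped at 142.5 kb, where the ratio of 0.95 was 0.07 without the second-listed cDC library. Without the second-listed CDP library the ratio at 59.6 kb was 1.81 instead of 0.90, and that at 119.75 kb was 2.54 instead of 1.91.

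**Figure D4:**
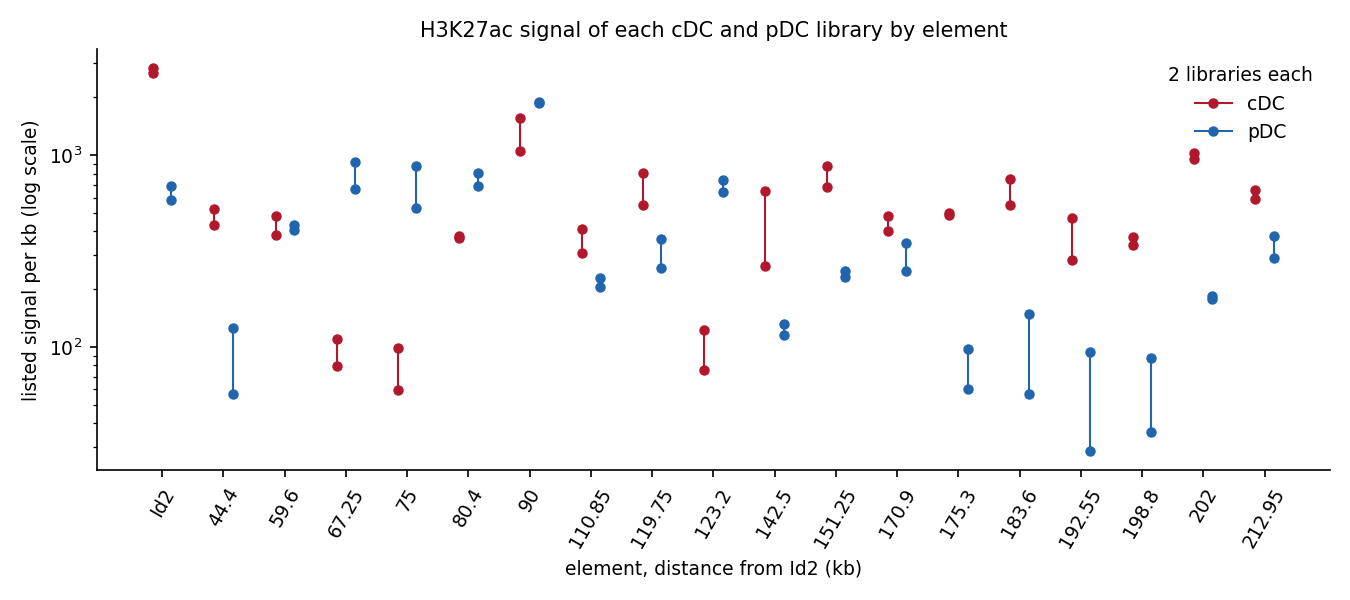
Listed signal per kb of each cDC and pDC library for the 19 elements of their common list (horizontal axis, distance from Id2 in kb; vertical axis, signal per kb on a log scale; a line joins the 2 libraries). Both cDC libraries stand above both pDC libraries at 13 elements, Id2 among them, and below them at 67.25, 75, 80.4, 90 and 123.2 kb.

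By distance from the gene, the cDC signal departed most from CDP at the far end. The ratio of cDC over CDP was 1.54-fold up to 50 kb, where it rests on the element at 44.4 kb alone, and 1.44-fold from 50 to 100 kb. It was 1.71-fold from 100 to 150 kb and 5.19-fold beyond, without overlap of libraries in any of the classes. For pDC over CDP the order was another one: pDC was 3.37-fold lower up to 50 kb and then 2.72-fold, 3.16-fold and 1.95-fold higher. The listed lengths differ: beyond 150 kb they were 31.8 kb for cDC over CDP and 8.3 kb for pDC over CDP. From 50 to 100 kb, the element at 90 kb gave 4458 and 6660 of the cDC sums of 5802 and 8276 against CDP. From 100 to 150 kb, the element at 123.2 kb gave 1340 and 1587 of the pDC sums of 1752 and 1982. In that class pDC was also higher at 119.75 kb, lower at 106.45 kb and overlapped CDP at 110.85 kb. Between the mature cells, cDC was 5.24-fold higher than pDC up to 50 kb and 3.48-fold higher beyond 150 kb. In the 2 classes between, cDC was 1.99-fold and 1.40-fold lower than pDC; their log2 ratios of -0.99 and -0.48 became -0.53 and -0.04 under equal totals. Over the whole distal block, the progenitor list covered 8.3 kb. CDP libraries gave 4156 and 5370 there and MPP libraries 5018 and 4361, which overlap, at a log2 ratio of 0.02. Most of that signal came from the element at 90 kb, with 2693 and 3301 in CDP and 3509 and 3299 in MPP. The elements at 44.4, 183.6 and 202 kb were higher in CDP without overlap, and those at 80.4 and 170.9 kb lower. That list held only parts of them. It covered 0.95 of 2.6 kb, 1.25 of 3.4 kb and 0.3 of 9.2 kb of the former. Of the latter it covered 0.55 of 1.65 kb and 0.3 of 2.35 kb.

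Counts over the window were set against each whole list. In the window 14 of 21 regions were listed as higher in CDP than in MPP, against 45.7% of the list. Libraries were separate, meaning no overlap, in that direction in 8, against 26.8%. For cDC over CDP, 20 of 24 regions were listed as higher in cDC, against 42.9%, and 17 were separate, against 22.0%. For pDC over CDP, 19 of 32 were listed as higher in pDC, against 50.2%, and 16 were separate, against 39.7%. For cDC over pDC, 23 of 37 were listed as higher in cDC, against 43.0%, and 22 were separate, against 26.0%. Under equal totals, 28 of these 37 had the higher mean in cDC, 75.7% instead of 62.2%, against 60.4% of the list. As the window was chosen on these signals, nothing is read from the difference.

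A stricter set held regions with a ratio of 2 or more, a −log10 p of 10 or more in the authors' deposited table, and separate libraries. Of the progenitor list it held 6 with more in CDP and 0 with more in MPP, against 8.49% and 11.1% of that list. It held 13 higher in cDC and 0 higher in CDP, against 9.10% and 16.2%. It held 13 higher in pDC and 8 higher in CDP, against 23.5% and 17.7%, and the 13 became 8 under equal totals. It held 16 higher in cDC and 5 higher in pDC, against 11.2% and 25.3%, and the 5 became 3. Whole-list shares of the stricter set were not computed under equal totals, so these changes are not set against the lists. Median log2 ratios in the window were 0.29 for CDP over MPP, 1.18 for cDC over CDP, 0.62 for pDC over CDP and 0.78 for cDC over pDC. The medians of the whole lists, in the same order, were -0.12, -0.17, 0.04 and -0.20.

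The far edge of the window cuts through acetylated chromatin. Just inside it in the list of pDC and CDP, a region gave 80 and 69 in pDC and 13 and 7 in CDP. Just outside, 0.55 kb beyond the edge, another gave 657 and 663 in pDC and 60 and 100 in CDP, 8.16-fold higher in pDC. In the list of cDC and CDP, the first region outside gave 69 and 92 in cDC and 33 and 16 in CDP. On the side of the gene, the nearest listed regions outside lay at least 29.2 kb from the window.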

How the data were processed

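Alignment used BWA 0.6.1 and mm9, per the submitters' processing notes, and THOR, a differential peak caller, is named in the series title. The authors' deposited lists hold bounds, a direction, signals of 2 libraries per group (whole numbers in a unit that is not stated) and −log10 of a p-value. No source used here gives their scaling, correction or threshold. Read depth is unknown, so no counting interval is given. Group order follows the list names, which was checked on regions shared by 2 lists with signals of at least 50: values of 1 group and place had a log2 SD of at most 0.059 between lists in 10 pairs, against at least 0.456 in 86 others. No replicate number is given.

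Members and lists were chosen with earlier results of these data known. Sums, log2 ratios (pseudocount 1) and counts were computed within each list. Named by rule were the regions at Id2 and 2 kb on either side. In the block these were, for each list, up to 5 regions per direction with the largest ratios among separate ones at or above the list's median signal, the 3 highest per kb and the 3 longest stretches. Others, the 21 elements and the stricter set were chosen after values were seen. Alternatives were equal autosomal totals, a stricter p, a minimum length, separate libraries, regions wholly inside the window, other pseudocounts and leaving out libraries. Genes of like pattern and markers need an mm9 annotation, and the 4 input and 4 RNA samples were left aside. Scripts ran on Python 3.11.15 with numpy 2.4.6, pandas 2.3.3, and, for plots, matplotlib 3.10.9, and were tested on simulated data.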

Additional observations from a re-analysis of the deposited data

Results flagged for a closer look

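A pair of elements stood out because both cDC libraries lay above both CDP libraries while both pDC libraries lay below both CDP libraries. At 44.4 kb from Id2 the log2 ratio of cDC over CDP exceeded that of pDC over CDP by 2.38. At 183.6 kb from Id2 it exceeded it by 2.92. These differences were not tested, the lengths listed differ, and both lists hold the CDP libraries.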

How the results depend on the processing

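Equal autosomal totals moved the median log2 ratio of the whole list to 0.02 for CDP over MPP, -0.09 for cDC over CDP, -0.26 for pDC over CDP and 0.26 for cDC over pDC. They turned the summed log2 ratio of pDC over CDP at Id2 to -0.22. They raised cDC over pDC to 1.47 over the window, 2.61 at Id2 and 0.93 over the distal block, and left 8 regions higher in pDC than CDP and 3 higher in pDC than cDC in the stricter set. Elements without overlap became 7 for higher in CDP than MPP, 2 for lower in cDC than CDP and 5 for lower in pDC than CDP. Of 66 element ratios they changed whether libraries overlap in 11 and the sign of 2, at Id2 for pDC over CDP and at 110.85 kb for cDC over CDP. Of 16 ratios by distance they moved 5 by more than the spread between libraries and turned none. A −log10 p of at least 10 gave 1.12 for CDP over MPP over the window and left 6 regions listed as higher in CDP. A length of at least 500 bp left 5 of these, 4 of them with separate libraries, and turned the distal block to -0.14. Leaving out 1 library gave CDP over MPP in the distal block from -0.17 to 0.20, negative without the second-listed CDP or the second-listed MPP library (-0.08). It gave pDC over CDP at Id2 from -0.13 to 0.32, negative also without the second-listed pDC library (-0.06). It gave 8 to 14 regions separate and higher in CDP than MPP, the 14 without the first-listed CDP library. It gave elements higher in CDP than MPP from 4 to 8, lower in CDP than MPP from 2 to 5, lower in cDC than CDP from 1 to 3 and lower in pDC than CDP from 3 to 5. Leaving out a library can only keep or raise these counts of separate regions and elements. Of the element ratios it moved 23 by over 1.5 times and turned 6, and of the 114 region ratios it moved 41 and turned 13. All turned ones had overlapping libraries, since a ratio with separate libraries cannot turn in this way. Summed ratios of the window, the gene, the block and the distances not named here kept their sign and moved by less than the spread, and counts not named moved by at most 1.5 times. All 76 ratios of named regions under pseudocounts of 0.5 and 5 kept their sign and moved by less than the spread. Leaving out libraries for counts, elements and regions, and equal totals for the stricter set, the elements and the distances, were added after seeing the data. No paired analysis was possible because the values carry no replicate number. Unknown read depth limits the precision of low signals.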
